A study of Mus musculus with 8 samples.

Results

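The 16348 listed H3K27me3 regions of mouse chromosome 8 are every row of the authors' deposited table on that chromosome, out of 265968 regions on all chromosomes. The libraries came from 3T3 cells, an immortalised mouse fibroblast line. The 3 libraries labelled NNMT carried an overexpression construct for nicotinamide N-methyltransferase, and the 3 labelled Ctrl carried a control construct. Each construct also had 1 input library, which the values below do not name. All cells were kept for 48 h in medium brought to 10 µM methionine with 10% dialyzed serum. The labels name neither the promoter of the construct nor whether the cells were 1 clone or a pool. Each row of the deposited table gives 3 whole-number values for a first-listed set of libraries and 3 for a second-listed set, here called set 1 and set 2. Which set is NNMT is not stated in the sources used here, so no direction below is tied to NNMT, and the libraries of a set are given in their listed order without a replicate number.

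H3K27me3 is trimethylation of lysine 27 of histone H3. Polycomb repressive complex 2 places it, and the mark covers genes that a cell lineage keeps silent, from CpG-rich promoters of developmental regulators to broad domains over inactive genes and the sequence between them. In a fibroblast, genes of neurons, liver or blood are typical carriers, while housekeeping genes are normally free of it. NNMT uses S-adenosylmethionine, the methyl donor of histone methyltransferases, so the levels of the mark were compared between cells with the 2 constructs.

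The chromosome was chosen by the 6 values per region, with its direction known: more of its regions were higher in set 2 than in set 1, and the table may list only regions picked for a difference between the sets. Counts, levels and ratios are therefore a description, with no test. The error given with a ratio is its range over the 9 pairs of 1 library from each set. Regions are called separated if the lowest value in one set exceeds the highest in the other.

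Few promoters lay inside these regions, and 6 are shown because they sit in the parts of the chromosome described below. Each lies wholly within 1 separated region, and they were chosen after their values were seen from 79 such windows, of which 46 were higher in set 2 and 33 in set 1. Sequences are from RefSeq (GRCm38.p6), run 5′ to 3′ from 250 bases before a gene's start to 50 after it, and have their CG dinucleotides in capitals. Ces1e (chr8:93229570-93229869, minus strand) and Ces5a (chr8:93535791-93536090, minus strand) encode carboxylesterases, Defb13 (chr8:21946505-21946804, plus strand) a beta-defensin, and Ucp1 (chr8:83290098-83290397, plus strand) the uncoupling protein of brown fat. These 4 lay in regions higher in set 2. Fendrr (chr8:121083061-121083360, minus strand), a long noncoding RNA beside the forkhead gene Foxf1, and Ces4a (chr8:105131550-105131849, plus strand) lay in regions higher in set 1.
Ces1e: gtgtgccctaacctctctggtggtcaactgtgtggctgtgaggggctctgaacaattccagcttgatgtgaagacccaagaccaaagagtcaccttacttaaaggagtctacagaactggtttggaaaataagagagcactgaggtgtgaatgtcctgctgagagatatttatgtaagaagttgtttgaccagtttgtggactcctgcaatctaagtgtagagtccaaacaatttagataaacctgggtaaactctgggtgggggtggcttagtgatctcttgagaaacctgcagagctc
Ces5a: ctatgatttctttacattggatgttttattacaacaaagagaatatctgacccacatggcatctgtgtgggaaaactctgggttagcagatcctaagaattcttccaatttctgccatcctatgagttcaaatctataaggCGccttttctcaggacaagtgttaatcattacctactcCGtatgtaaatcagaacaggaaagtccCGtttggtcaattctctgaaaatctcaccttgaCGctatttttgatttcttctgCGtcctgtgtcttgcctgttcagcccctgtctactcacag
Defb13: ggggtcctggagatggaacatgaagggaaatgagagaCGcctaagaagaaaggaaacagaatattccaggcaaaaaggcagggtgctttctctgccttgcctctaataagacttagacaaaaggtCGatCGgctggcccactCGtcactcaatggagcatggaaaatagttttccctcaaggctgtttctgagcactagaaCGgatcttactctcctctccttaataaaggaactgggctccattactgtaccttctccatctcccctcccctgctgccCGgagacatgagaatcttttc
Ucp1: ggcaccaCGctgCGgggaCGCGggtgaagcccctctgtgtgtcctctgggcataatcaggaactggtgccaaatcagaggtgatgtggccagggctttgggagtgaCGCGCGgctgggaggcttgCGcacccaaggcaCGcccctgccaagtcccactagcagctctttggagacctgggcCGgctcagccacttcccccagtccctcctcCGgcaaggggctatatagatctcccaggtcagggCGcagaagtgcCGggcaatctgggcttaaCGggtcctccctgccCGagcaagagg
Fendrr: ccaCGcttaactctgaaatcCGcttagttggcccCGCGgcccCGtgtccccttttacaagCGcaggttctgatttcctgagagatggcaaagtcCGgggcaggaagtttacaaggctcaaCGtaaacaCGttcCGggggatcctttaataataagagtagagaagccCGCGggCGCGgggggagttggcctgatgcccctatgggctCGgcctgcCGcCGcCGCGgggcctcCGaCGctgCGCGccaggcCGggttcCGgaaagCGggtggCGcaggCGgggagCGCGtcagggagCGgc
Ces4a: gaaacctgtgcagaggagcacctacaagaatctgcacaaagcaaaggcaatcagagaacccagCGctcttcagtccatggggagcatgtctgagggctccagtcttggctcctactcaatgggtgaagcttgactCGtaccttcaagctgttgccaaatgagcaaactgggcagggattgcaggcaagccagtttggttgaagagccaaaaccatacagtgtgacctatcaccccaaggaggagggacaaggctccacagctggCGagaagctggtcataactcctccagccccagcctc

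The 6 windows ran from 0 CG dinucleotides at Ces1e to 31 at Fendrr, with 15 at Ucp1, 6 at Defb13, 5 at Ces5a and 3 at Ces4a. The dinucleotide CG reads the same on both strands, and it occurs at least once in 94.6% of the 32851 promoter windows of the RefSeq table and in 96.2% of the 1442 on chromosome 8. Windows with 10 or more of them made up 45.4% of those on chromosome 8 but 23 of the 184 that touched a listed region, or 12.5%. Among the 184, the median was 4 both for the 108 in regions higher in set 2 and for the 76 in regions higher in set 1. In the first group 9.26% had 10 or more, and in the second 17.1%. CpG-rich promoters were thus a small part of what was listed, in either direction.

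The 9.35 kb region around the Ces1e promoter stood at 972, 1103 and 935 in the set 1 libraries, against 2279, 2485 and 2303 in those of set 2, a ratio of 2.35 (2.07 to 2.66 over pairs). At Ces5a the values were 384, 542 and 390 against 834, 850 and 750 (1.85-fold, 1.38 to 2.21), and at Defb13 they were 152, 128 and 126 against 245, 205 and 213 (1.63-fold). At Ces4a they lay the other way, 442, 565 and 413 against 246, 251 and 265. Fendrr lay in the longest region of the chromosome, 30.05 kb, with 9676, 9921 and 9880 in set 1 and 6619, 7365 and 6366 in set 2. Set 1 was 1.45-fold higher there (1.31 to 1.56). The region at the Ucp1 promoter was 1.25-fold higher in set 2 (1.06 to 1.56), although the gene had 6 of its 7 regions higher in set 1 and sums 1.22-fold higher there (1.08 to 1.3).

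Over the whole chromosome, set 2 had the higher sum in 9672 regions and set 1 in 6676, so that 59.2% leaned to set 2, compared with 40.5% of all regions listed. The share leaning to set 1 was 40.8%, compared with 59.5% of all. Between single libraries of the 2 sets the share ran from 56.2% to 60.3%. Among the other 18 autosomes it ran from 14.0% to 66.4%, and only chromosome 16 stood above chromosome 8. Separated regions higher in set 2 made up 38.7% of the chromosome against 24.7% of the table, and those higher in set 1 made up 26.6% against 40.5%. The counts leaned further than the values did. Summed over the chromosome, the set 1 libraries reached 2137062, 2146602 and 2027250 and the set 2 libraries 2220693, 2325789 and 2207082, a ratio of set 2 over set 1 of 1.07 (1.03 to 1.15). The table as a whole leaned the other way, with set 1 summing to 1.14 times set 2. Scaling both sets to equal sums over the table shifts every log2 ratio by 0.19. It took the log2 ratio of set 1 over set 2 on chromosome 8 from -0.1 to -0.29 and hardly moved the split by direction (59.6% towards set 2). Depth is unknown because the table gives no library totals, and the sources used here do not say whether the inputs entered the values. Unequal copy number of chromosome 8 DNA in the cells of the 2 sets and unequal levels of the mark cannot be told apart. In bulk chromatin, marked cells that are fewer and cells that each carry less of the mark cannot be told apart either.

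The higher set stood at a similar level in both directions. In regions leaning to set 2, the median of the mean value per kb was 188 for set 2 and 104 for set 1. In regions leaning to set 1 it was 185 for set 1 and 104 for set 2. Median ratios were 1.72-fold towards set 2 and 1.71-fold towards set 1. The medians of the 2 directions were thus alike, but the tails were not: the smallest of the 100 largest ratios was 11.5-fold towards set 2 and 5.7-fold towards set 1. Region length did not separate them either, since the share higher in set 2 was 60.1% below 500 bp and 60.2% between 2 and 5 kb, and 50.9% among the 108 regions of 5 to 10 kb.

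In windows of 5 Mb, 21 of 26 held more regions higher in set 2 (80.8%, against 40.2% of the 5 Mb windows of all chromosomes), and 5 leaned to set 1 (against 59.5%). The lean was uneven. In 9 windows the share higher in set 2 lay between 45% and 55%. The summed values of the 3 set 2 libraries lay above those of all 3 set 1 libraries in 14 windows and below them in 3, and in the other 9 the libraries overlapped. The 4 windows with at least 100 regions and over 80% of them higher in set 2 held 20.8% of the regions but an excess of 2678 set 2 regions, against 2996 for the whole chromosome. Without these 4 windows, an omission chosen after seeing the data, the share was 51.2%.

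Of those windows, 5 to 10 Mb had 436 of 452 regions higher in set 2 (96.5%), with sums of 24201, 24853 and 22424 for set 1 against 38749, 42161 and 38847 for set 2. The window from 15 to 20 Mb had 623 of 657 (94.8%) and a ratio of 1.74 (1.64 to 1.93). From 20 to 25 Mb it was 877 of 1045 (83.9%) at 1.49-fold (1.41 to 1.63). The window from 115 to 120 Mb had 1100 of 1240 (88.7%), with 58558, 58273 and 53188 in set 1 against 99140, 105562 and 99736 in set 2. In each of these 4 windows the lowest set 2 library exceeded the highest set 1 library. Between 50 and 55 Mb all 37 regions were higher in set 2, at 1.89-fold (1.74 to 2.1), but that window is nearly empty. From 55 to 60 Mb it was 164 of 213 (77.0%).

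**Figure D1:**
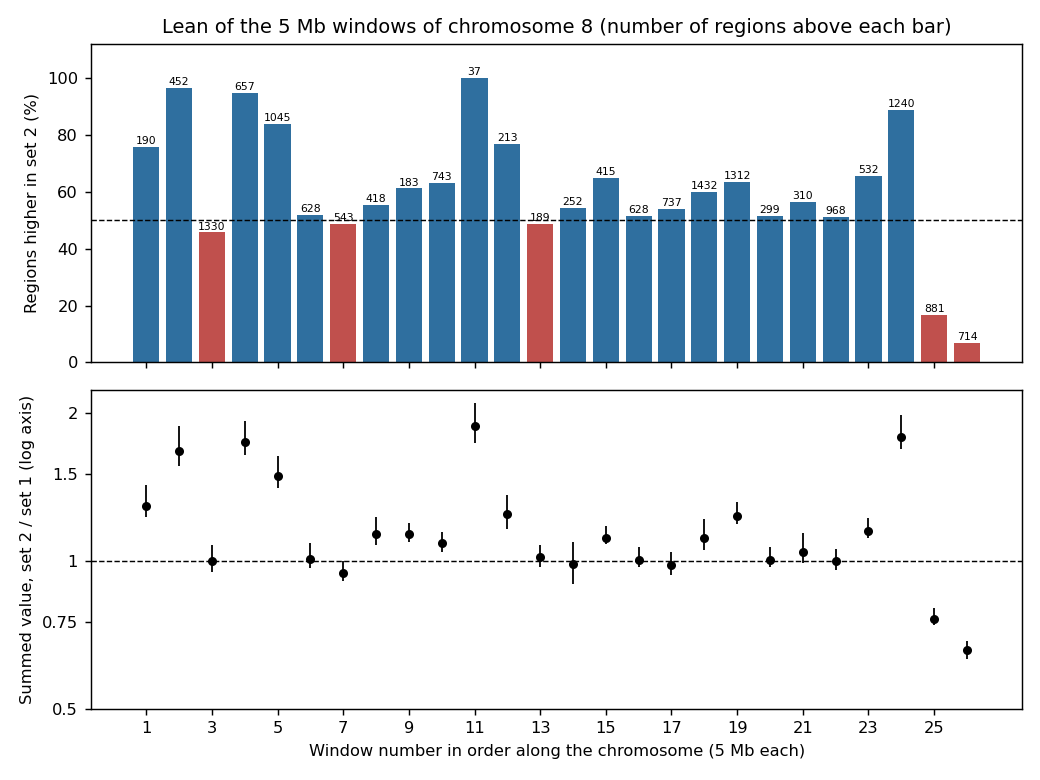
Share of regions higher in set 2 (upper panel, percent, bars from 0, number of regions above each bar) and ratio of summed values of set 2 over set 1 (lower panel, log axis, bars spanning the 9 library pairs) for the 26 windows of 5 Mb in order along chromosome 8. Blue bars lean to set 2 and red bars to set 1; the last 2 windows stand at 16.6% and 6.86%.

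Of the 5 windows that went against the majority, 2 at the end of the chromosome leaned strongly to set 1. From 120 to 125 Mb 735 of 881 regions were higher in set 1, with sums of 214177, 215097 and 207936 for set 1 against 160534, 166507 and 159304 for set 2, a ratio of set 1 over set 2 of 1.31 (1.25 to 1.35). From 125 Mb to the end it was 665 of 714, with 141922, 140266 and 134529 against 89514, 92620 and 92160, or 1.52-fold (1.45 to 1.59). Both kept their direction after scaling to equal sums, at 17.5% and 7.14% of regions higher in set 2. The other 3 were close to even: 45.7% of 1330 regions between 10 and 15 Mb, 48.6% of 543 between 30 and 35 Mb and 48.7% of 189 between 60 and 65 Mb. From 10 to 15 Mb the libraries overlapped (278131 to 292814 in set 1 and 278563 to 300307 in set 2). With regions of 500 bp or longer only, that window turned to 55.6%. From 30 to 35 Mb it turned to 53.2% with regions whose 6 values summed to 100 or more. At 1 Mb resolution the windows from 10 and 30 Mb were mixtures. From 14 to 15 Mb 122 of 125 regions were higher in set 1, and from 34 to 35 Mb 157 of 170. Some other parts of the same windows leaned to set 2. From 60 to 65 Mb, 30 of 44 regions in the first Mb were higher in set 1, and the other parts with regions stood at 51.5% to 55.2% higher in set 2.

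Counting set 2 regions as plus and set 1 regions as minus from the first region onward, the running total climbed to 4262 at 119.36 Mb (region 14624) and then dropped to 2996 at the end. After that point 1495 of 1724 regions were higher in set 1. Without the last 2 windows the chromosome stood at 64.2% higher in set 2.

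**Figure D2:**
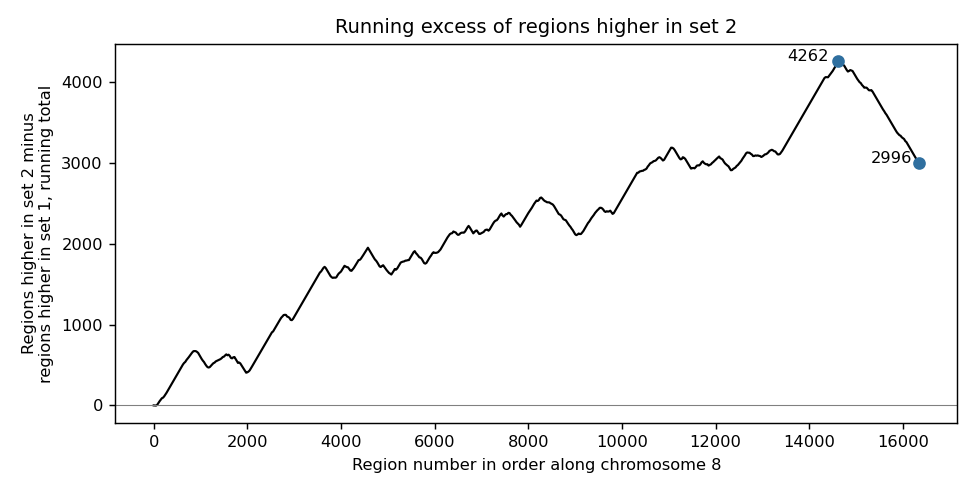
Running total of regions higher in set 2 minus regions higher in set 1 (y axis, number of regions) against region number in order along chromosome 8. The line climbs in a few steep steps to 4262 and drops to 2996 over the last 1724 regions.

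Regions of one direction came in long runs. A stretch was counted where at least 10 consecutive regions were higher in the same set with gaps of at most 100 kb. There were 138 stretches higher in set 2, holding 37.4% of the regions of the chromosome (22.4% over the table), and 126 higher in set 1, holding 22.1% (38.8% over the table). Stretches of 100 regions or more numbered 10 for set 2 and 2 for set 1. The longest, 544 regions over 855.8 kb (chr8:23535851-24391650), covers Zmat4, which encodes a zinc finger protein, with 16726, 15748 and 14086 in set 1 and 36585, 40281 and 35514 in set 2. That is a ratio of 2.41 (2.12 to 2.86), and the sets are far apart.

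The next 2 stretches flank Maf, a leucine zipper transcription factor of lens, cartilage and immune cells, and hold the largest differences of the chromosome. The first (chr8:115366501-115690100) had 373 regions with sums of 2789, 2159 and 1742 for set 1 against 20138, 20405 and 19669 for set 2, a ratio of 9 (7.05 to 11.7). The second (chr8:115833351-116546050) had 401 regions with 4259, 3924 and 3100 against 23930, 24873 and 24248, a ratio of 6.47 (5.62 to 8.02). Maf itself (chr8:115703253-115706894) lies in the 143.25 kb between them, which holds 0 listed regions, 13.2 kb from the first stretch and 126 kb from the second. All 774 regions of the 2 stretches were higher in set 2, which the definition of a stretch requires. Of these, 738 (95.3%) were separated, against 65.4% of all regions of the chromosome that were higher in set 2. Set 2 stood near its level elsewhere and set 1 far below its own. Per kb of region the set 2 libraries carried 220, 227 and 220, against 187, 196 and 186 on the rest of the chromosome, whereas the set 1 libraries carried 35.3, 30.4 and 24.2 against 183, 184 and 174. At least 1 set 1 library was at 0 in 412 of the 774 regions.

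All of the 100 largest ratios towards set 2 (separated regions whose 6 values sum to 100 or more) fell into these 2 stretches, as did 624 of the 999 regions of the chromosome that were well higher in set 2 (a log2 ratio of -2 or less). The 2 stretches held 4.73% of all regions of the chromosome. A region of 300 bp (chr8:115492751-115493050), 82.5 kb from the noncoding Gm39256, was listed at 0, 0 and 0 in set 1 and at 59, 74 and 82 in set 2. One of 250 bp (chr8:116237801-116238050), 5.465 kb from Gm31278, was listed at 0 in all of set 1 and at 56, 61 and 48 in set 2. Another of 450 bp (chr8:116131451-116131900) had 0, 1 and 3 against 102, 122 and 108. The other 5 of the 8 with the largest ratios had 21 to 105 in set 2 and 0 to 3 in set 1. These are short regions with low values, whereas the sums above rest on 373 and 401 regions. Without the 2 stretches the chromosome still leaned to set 2, at 57.1% of regions and 1.05-fold in sum.

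**Figure D3:**
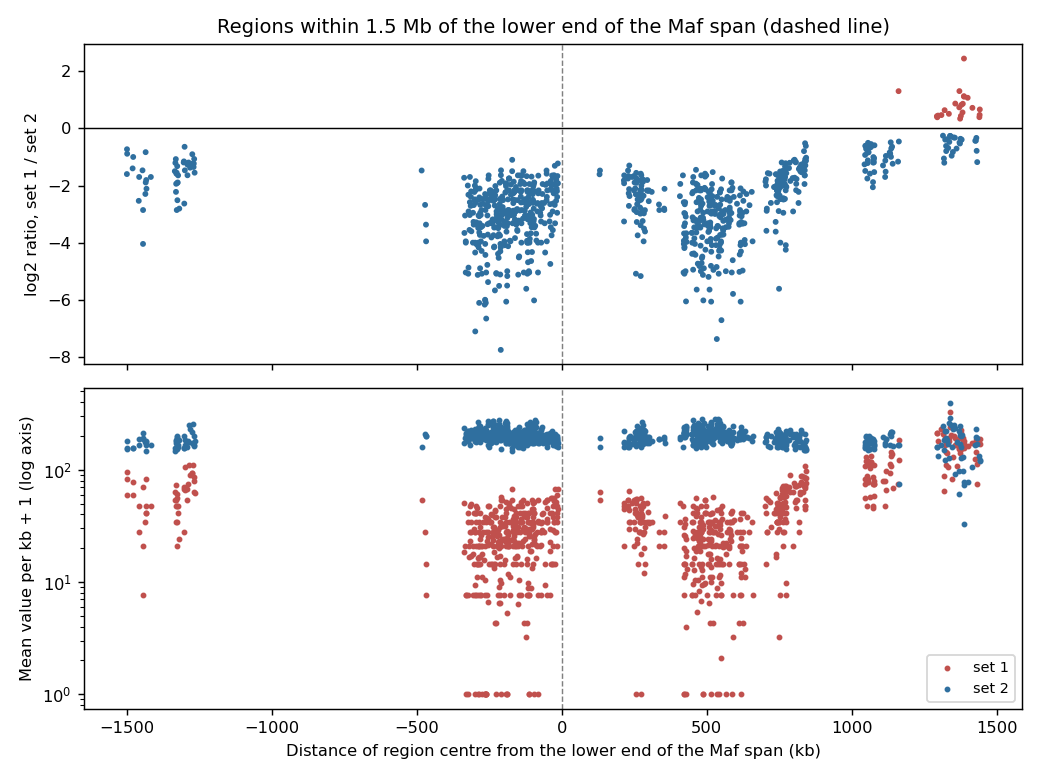
Log2 ratio of set 1 over set 2 per region (upper panel) and mean value per kb plus 1 of each set (lower panel, log axis) against distance in kb from the lower end of the Maf span (dashed line). Set 2 stays level across the plot, while set 1 lies below it on both sides of Maf, also outside the 2 stretches, and overlaps with it at the right end.

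All 138 set 2 stretches together touched 13.6 annotated genes per Mb, and the 126 set 1 stretches 28.2. The whole chromosome has 1749 such genes, and its last region ends at 128.94 Mb. That total counts each gene once, unlike the touched genes, so the set 2 stretches are not shown to be poorer in genes than the chromosome. The first spanned 18.8 Mb in all and the second 10 Mb. Every touched gene was counted, so shorter stretches can gain more genes at their edges per Mb. The part of stretch length in this gap was not tested. One of 368 regions (chr8:8868151-9942150) spans Fam155a, an auxiliary subunit of the sodium leak channel, at 1.88-fold (1.72 to 2.17). One of 321 (chr8:89550551-90785250) spans Tox3, an HMG-box transcription factor, at 2.06-fold (1.82 to 2.53), and one of 191 (chr8:88835851-89445350) spans Sall1, a zinc finger regulator of kidney development, at 1.79-fold (1.64 to 1.99). Stretches of 224 regions (chr8:15201701-15707900, 1.89-fold) and 214 regions (chr8:18154101-18561900, 2.39-fold, 2.23 to 2.61) hold predicted genes only, among them Gm46033 and 1700014L14Rik.

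The 5 set 1 stretches with the most regions were smaller. One of 141 regions (chr8:127645101-127861950) holds 2 noncoding genes and had 11040, 11189 and 10488 in set 1 against 4153, 3804 and 4398 in set 2, or 2.65-fold (2.38 to 2.94). One of 115 over Cacna1a (chr8:84274951-84605450) stood at 2.25-fold (2.1 to 2.43). One of 94 over Plekha2 and part of Tacc1 (chr8:25048901-25246500) stood at 2.66-fold (2.47 to 2.85). It lies less than 1 Mb from the Zmat4 stretch, so neighbouring parts of the chromosome leaned in opposite directions. Tsnax and Disc1 (82 regions, chr8:125008901-125212150) and a group of noncoding genes (80 regions, chr8:10705651-10894950) stood at 1.75-fold and 1.89-fold.

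Of the 1749 protein-coding and long noncoding genes of the chromosome, 679 carried a region in their span or within 2 kb of it, and 1070 carried none. By genes the majority for set 2 was small. More regions were higher in set 2 at 335 genes and in set 1 at 305. A gene was said to lean where it had at least 5 regions and 80% of them in one direction. Of 413 genes with at least 5, 128 leaned to set 2 (31.0%, against 19.9% of such genes in the table) and 137 to set 1 (33.2%, against 50.4%). The order of these 2 counts turned with the definition, to 91 for set 2 and 69 for set 1 with regions of 500 bp or longer. Of the genes that begin after 120 Mb, 1 leaned to set 2 and 38 to set 1.

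The 12 leaning genes with the most set 2 regions were 8 protein-coding and 4 noncoding genes. At Zmat4 all 286 regions were higher in set 2, with 7093, 6652 and 5801 in set 1 and 17559, 19039 and 16900 in set 2 (2.74-fold, 2.38 to 3.28). Fam155a had 171 of 171, with 4928, 4921 and 4505 against 10114, 11291 and 10367 (2.21-fold, 2.05 to 2.51). Nrg1, which encodes the ErbB ligand neuregulin, had 106 of 116, with 5138, 4554 and 4398 against 7836, 7870 and 7288 (1.63-fold, 1.42 to 1.79). In these 3 genes the libraries of the sets did not overlap. Tenm3, a teneurin that guides synaptic partner choice, had 92 of 106 (1.43-fold, 1.28 to 1.61). Cdh13, a cadherin held in the membrane by a lipid anchor, had 79 of 80 (1.62-fold, 1.43 to 1.88). Zfp423, a zinc finger factor of adipocyte commitment, had 118 of 140, but its sums differed by only 1.26-fold (1.15 to 1.42). Hhip, an inhibitor that binds hedgehog ligands, had 36 of 37 (1.59-fold, 1.48 to 1.82), and Stox2, a winged helix protein, 51 of 54 (1.59-fold). Among noncoding genes Gm31278 and Gm39256 beside Maf stood at 10.4-fold (7.97 to 15.3) and 9.03-fold (6.54 to 11.9), Gm10649 at 2.47-fold and Gm30504 at 1.99-fold.

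Of the 8 leaning genes with the most set 1 regions, 7 were protein-coding. Cacna1a, the pore subunit of the P/Q-type calcium channel, had all 109 regions higher in set 1, with 14956, 15221 and 14479 in set 1 and 6286, 6706 and 6809 in set 2 (2.26-fold, 2.13 to 2.42). Dlgap2, a postsynaptic scaffold, had 115 of 118, with 22405, 22595 and 21613 against 14155, 13350 and 13757 (1.61-fold, 1.53 to 1.69). It lies in the 14 to 15 Mb part, where 122 of 125 regions were higher in set 1. The Mb before that part also leaned to set 1 (143 of 209 regions), and the Mb after it leaned to set 2 (297 of 323). Disc1, a scaffold protein of neurons, had 81 of 81 (1.75-fold, 1.7 to 1.79), and Pcnx2 103 of 104 (1.76-fold, 1.67 to 1.87). Tex15, required for meiosis in the male germ line, had 43 of 43 (2.37-fold, 2.12 to 2.74). Plekha2, a lipid-binding adaptor, had 40 of 40 (2.61-fold, 2.52 to 2.76). Slc35f3, a member of a solute carrier family, and the noncoding Gm26843 had 97 of 117 and 96 of 111, with sums 1.26-fold and 1.34-fold higher. The largest single ratios towards set 1 were in Adgrg1, an adhesion G protein-coupled receptor. One of its regions (chr8:94996351-94996550) had 56, 25 and 50 in set 1 and was listed at 0 in all of set 2, and 2 others had 27 to 40 in set 1 and 0 or 1 in set 2. The other 3 of the 6 largest lay beyond 120 Mb: 68, 63 and 87 against 5, 0 and 0 beside Gm33471, 54, 23 and 27 against 0, 0 and 2 near Gm35995, and 67, 164 and 128 against 0, 2 and 8 in A330074K22Rik. Of the 100 largest ratios towards set 1, 48 lay after 120 Mb and 10 in Adgrg1. For comparison, of all 6676 regions higher in set 1, 1400 lay after 120 Mb and 35 in or within 2 kb of Adgrg1.

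**Figure D4:**
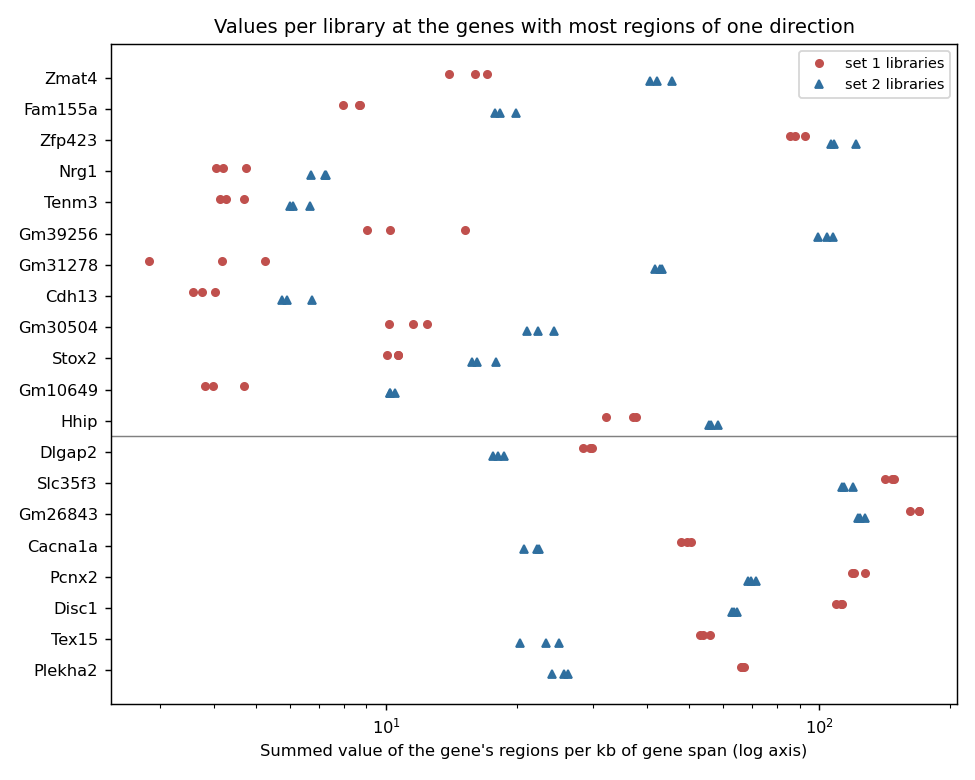
Summed value of a gene's regions per kb of gene span (x axis, log) in each library, set 1 as circles and set 2 as triangles, for the 12 genes leaning to set 2 with the most regions (above the line) and the 8 leaning to set 1 (below). The libraries of the sets do not overlap at any of the 20 genes, and the gap is widest at Gm31278 (10.4-fold). The genes were picked by the direction of these same values, which favours such a separation.

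Regulators of development carried regions in both directions. Of 28 transcription factor genes on a fixed list, 13 carried a region, with 9 having more towards set 2, 3 towards set 1 and 1 as many of each. Their median ratio of set 2 over set 1 was 1.15, against 1.04 over all 679 genes with a region. For this list and those below, the comparison is 679 of 1749 genes with a region, 335 with more towards set 2 and 305 towards set 1. Zfhx3, a large zinc finger homeobox gene, had 124 of 177 towards set 2 with sums 1.15-fold higher (1.1 to 1.24). Tox3 had 32 of 32, with 554, 442 and 408 in set 1 and 1170, 1337 and 1062 in set 2 (2.54-fold, 1.92 to 3.28). Foxf1, a regulator of lung and gut mesenchyme, had 9 of 9 towards set 1, with 10722, 10798 and 10952 against 7010, 7809 and 6904 (1.49-fold, 1.37 to 1.59). Most of these sums came from the 30.05 kb region at the Fendrr promoter (9676, 9921 and 9880 against 6619, 7365 and 6366). That region ends before the Foxf1 span begins and was counted through the 2 kb flank. Nr3c2, the mineralocorticoid receptor, had 7 of 8 towards set 1 (1.77-fold), and Klf1, an erythroid factor, 1 of 1 (1.84-fold). Irx3, Irx5, Foxc2, Maf and 11 others on the list had no listed region, which does not show that they lack the mark.

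Signalling genes split too, with 6 of the 10 carriers among 21 having more regions towards set 2 (median ratio 1.23). Frem3, an extracellular matrix protein, had 31 of 34 (1.39-fold, 1.22 to 1.59), beside Nrg1 and Hhip. Towards set 1 stood Gas6, a ligand of the TAM receptor kinases, with 12 of 12 (1.93-fold, 1.51 to 2.36), Wfdc1 with 11 of 11 (1.44-fold) and the chemokine gene Ccl22 with 8 of 8 (2.13-fold, 1.65 to 2.93). Of 24 neuronal genes on the chromosome 13 carried regions, 10 of them with more towards set 2 and 3 towards set 1 (median 1.14). Over all 1749 genes 679 carried a region, 335 of them with more towards set 2. Nrg1 was also counted among the signalling genes, and Palld also among the matrix, adhesion and contractile genes. Galntl6 was even, with 26 of 50 and a ratio of 1.02 (0.942 to 1.12). Necab2, a calcium-binding protein, had 10 of 15 towards set 1 (1.23-fold). Csmd1, named here for its ratio, had 11 of 11 towards set 2, with 33, 30 and 32 in set 1 and 179, 154 and 185 in set 2 (5.45-fold, 4.67 to 6.17); that is little signal for a gene spanning chr8:15892538-17535385.

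Matrix, adhesion and contractile genes carried regions in 9 of 20 cases, 5 with more towards set 2 and 4 towards set 1 (median 1.06). The carriers with wide differences lay in both directions. Crispld2, a secreted protein, had 23 of 23, with 783, 739 and 661 in set 1 and 177, 138 and 155 in set 2 (4.64-fold, 3.73 to 5.67). Sorbs2, an adaptor of the actin cytoskeleton, had 36 of 36, with 2123, 2212 and 1990 against 901, 801 and 871 (2.46-fold, 2.21 to 2.76). Dlc1 had 4 of 4 towards set 1 (2.18-fold). Towards set 2, the basement membrane collagen gene Col4a1 had 2 of 2 (2.25-fold, 1.4 to 3.97) and the protease gene Tll1 3 of 3 (1.31-fold). Dlc1, Col4a1 and Tll1 have few regions and were named after their values were seen. Palld, Pdlim3 and Ncan were close to even at 1.12-fold, 1.06-fold and 1.11-fold towards set 2, and Mmp15 at 1.05-fold towards set 1, which turned to set 2 after scaling to equal sums. Col4a2, Mmp2, Itgb1, Fat1 and Cdh11, genes commonly active in fibroblasts, were among the 11 without a listed region. Of 16 housekeeping genes 1 carried a region, Psmd7 of the proteasome (1.68-fold towards set 1), and the 4 metallothionein genes carried none. Regions may be listed only for a difference between the sets, so the lack of a listed region does not show a lack of the mark.

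Cadherin genes, many of which lie on this chromosome, divided by member. Cdh13 leaned to set 2, whereas Cdh5 of endothelium had 15 of 16 towards set 1 (1.5-fold, 1.34 to 1.65), Cdh3 of placenta and skin 14 of 14 (2.4-fold, 1.68 to 3.6) and Cdh1 of epithelia 8 of 9 (1.54-fold, 1.35 to 1.75). Cdh15 of muscle had 5 of 8 towards set 2 at 1.1-fold, and Cdh16 of kidney 7 of 13 with sums 1.03-fold higher in set 1, which turned after scaling. A list of 20 genes of other cell types held mostly markers of endothelium, blood, liver and epithelium, together with Ucp1 of brown fat and Ednra. Regions were carried by 16 of the 20, with 7 having more towards set 2 and 8 towards set 1 (median 0.898). Those 8 include Ucp1 (6 of 7 regions) and Ednra (1 of 1), so the split does not describe the named cell types alone. Irf8 of myeloid cells had 8 of 14 towards set 2 (1.08-fold), and F7, a clotting factor, 12 of 13 towards set 1 (1.38-fold). Of 37 defensin genes, which encode antimicrobial peptides of epithelia, 11 carried regions, all in the 15 to 25 Mb part that leaned to set 2, and 10 had more towards set 2 (median 1.73). Defb14 had 8 of 8 (2.49-fold, 2.03 to 2.96), Defb35 5 of 5 (1.66-fold) and Defb10 4 of 4 (1.93-fold), and Defb38 had 3 of 5 towards set 1 (1.2-fold, 0.954 to 1.46, the libraries overlapping).

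All 19 carboxylesterase genes carried regions, 17 with more towards set 2 (median 1.36), from Ces1g with 20 of 20 (2.63-fold, 2.29 to 3.31) to Ces2g at 1.06-fold (0.868 to 1.43). Over all 1749 genes of the chromosome 679 carried a region, 335 of them with more towards set 2. Many of the 19 are close neighbours, whose spans with 2 kb on both sides can share regions, so they are not independent cases. Ces1c had 18 of 18 (1.58-fold) and Ces1d 16 of 16 (1.88-fold), but Ces1a, the first of the row, had 16 of 16 towards set 1 (2.86-fold, 2.07 to 3.82), as did Ces4a with 10 of 11 (1.62-fold, 1.54 to 1.75).

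The set 2 majority came mostly from regions over 10 kb from any gene. Of 7207 regions that overlapped a gene span, 54.3% were higher in set 2, and the share was 52.6% within 10 kb of one, 59.2% from 10 to 50 kb and 81.1% of the 2403 regions over 50 kb from any gene. In the last class the libraries summed to 204815, 205532 and 190818 in set 1 against 267829, 287998 and 266720 in set 2 (1.37-fold, 1.3 to 1.51). Across the 96 windows of 1 Mb with at least 20 regions, the share higher in set 2 went down with the number of genes (Spearman's rho -0.54, Pearson's r -0.47). This is a description across windows, which share the same 6 libraries and are not independent. The 25 windows with over 90% higher in set 2 held a median of 8 genes (0 to 42), and the 11 with under 10% a median of 22 (5 to 45). On each of the other 18 autosomes the rho was also negative, from -0.68 to -0.22. Promoter base composition moved with gene number: the share was lower with higher mean GC content of the promoters in a window (rho -0.54 over 90 windows), and gene number and GC went together (0.53). The part of GC content in the lean was not tested. The last 2 Mb of the chromosome did not follow gene number, since 127 to 128 Mb held 7 genes and had 181 of 181 regions higher in set 1.

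**Figure D5:**
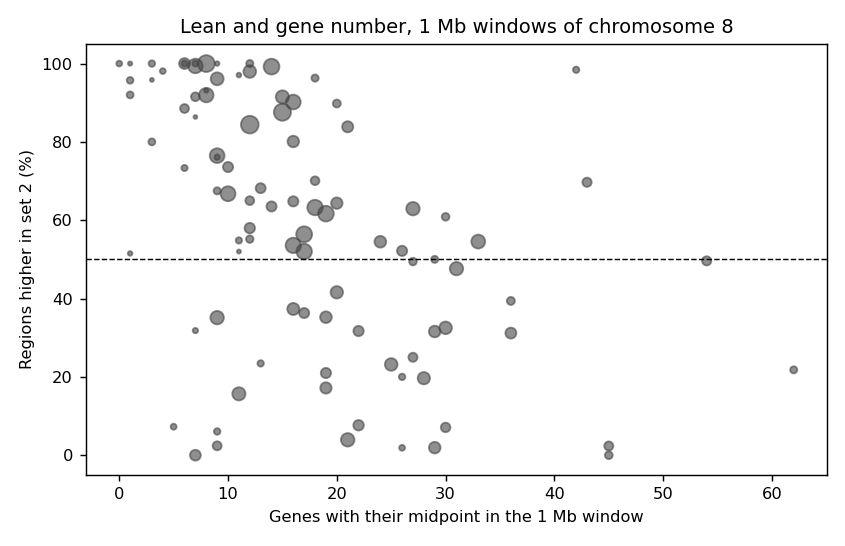
Share of regions higher in set 2 (y axis, percent) against the number of genes with their midpoint in the window (x axis) for 96 windows of 1 Mb with at least 20 regions, with point area growing with the number of regions. Windows with few genes lie mostly near the top, and the exceptions at the lower left include the last 2 Mb of the chromosome.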

How the data were processed

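H3K27me3 was immunoprecipitated from 3T3 cells after fixation with 1% formaldehyde and digestion with micrococcal nuclease, per the labels' protocols, in 3 libraries per construct. CASAVA, Trimmomatic 0.36, BWA 0.7.17 and the build GRCm38 are named in the submitters' processing notes. Not given in the sources used here are the program that called the regions, how values were scaled and how inputs entered. The deposited table has no header, and its last column holds the 6 values per region, which are whole numbers that may have been rescaled. They were not treated as raw reads and no count model was fitted. The p-like number beside them was not used. The sign column disagreed with the values in 0 of the 16348 regions.

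Sums, log2 ratios (pseudocount 1), windows, stretches and gene overlaps (RefSeq genes of GRCm38.p6, spans with 2 kb on both sides) were computed with Python 3.11.15 and pandas 2.3.3. As a check of the code, 26 of 26 window directions and 133 of 133 stretches planted in simulated regions were recovered. The simulated windows had a single direction each and the planted stretches no noise, so this does not show how reliable the leans above are. For 300 genes, 0 overlap counts differed from a brute-force count. The chromosome, its windows and the 10 gene lists were chosen with earlier results of these data known. The lists held 204 symbols, 188 of them distinct, so some genes recur between lists. The text names windows against the majority and the 6 leaning most to it, the 8 and 5 longest stretches, the 12 and 8 leaning genes with most regions, the 8 and 6 largest ratios among separated regions summing to 100 or more, and up to 3 genes per list and direction. A gene that this rule selects is not reported here. The labels number the libraries of a construct as replicates and do not say whether they came from separate cultures. Alternatives covered scaling, filters on regions, libraries left out, and window, stretch and gene definitions.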

Additional observations from a re-analysis of the deposited data

How the results depend on the processing

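The lean of the chromosome to set 2 kept its direction in every alternative run. The log2 ratio of summed values (set 1 over set 2), -0.1 as reported, was -0.29 after scaling the sets or the 6 libraries to equal sums over the table and -0.24 over regions past a log2 ratio of 1. The share higher in set 2 was 57.1% without the stretches around Maf, 64.2% without the last 2 windows (log2 ratio -0.19) and 51.2% without the 4 strongest windows (-0.017); these 3 omissions were chosen after seeing the data. Counts moved with their definition. Windows leaning to set 1, 5 as reported, were 9 with separated regions only, 9 with regions past a log2 ratio of 1 and 8 with windows shifted by 2.5 Mb. With windows of 2 Mb 46 leaned to set 2 and 14 to set 1, and with 10 Mb 12 and 1. Stretches, 138 and 126 as reported, were 51 and 57 past a log2 ratio of 1, 89 and 68 with regions of 500 bp or longer, and 65 and 62 with at least 20 regions. Genes leaning to set 2 and set 1, 128 and 137 as reported, were 53 and 92 past a log2 ratio of 1, 91 and 69 with regions of 500 bp or longer, 118 and 116 with sums of 100 or more, and 168 and 166 with 5 kb on both sides, so their order turned in the last 3; with 10 regions and 90% required they were 55 and 65. Leaving out 1 library at a time gave shares of 59.0% to 59.2%, log2 ratios of -0.11 to -0.07, 21 and 5 windows, 138 to 140 and 126 to 127 stretches, and 127 to 129 and 136 to 137 genes for set 2 and set 1. Among named items, Cdh16 turned to -0.15 after either scaling and to -1.02 past a log2 ratio of 1, and Mmp15 to -0.12 after either scaling and to -0.045 with regions of 500 bp or longer. Pdlim3 turned to 0.14 and Defb38 to -0.17 with separated regions, and Defb38 to -1.26 and Galntl6 to 0.25 past it. Galntl6 ranged from -0.068 to 0.0093 with 1 library left out, turning without the third-listed set 1 library (0.0093) or the second-listed set 2 library (0.00162). The window from 10 Mb turned to 55.6% with regions of 500 bp or longer, and that from 30 Mb to 53.2% with sums of 100 or more. Apart from the definitions themselves, the cause of these moves was not tested. No paired analysis was possible because the table carries no replicate numbers and no test was run. Depth is unknown, and single regions with values near 0 limit their own ratios most.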
